A study of Homo sapiens with 9 samples.

Results

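Type I interferon response genes were followed across LN229 cells, an established human glioblastoma line. The 50 genes were taken by symbol from a fixed list of interferon-stimulated genes and their regulators, with MHC genes kept apart. All 50 were present in the table of 19356 genes and were among the 16457 genes that passed the filter on low values. Polyadenylated RNA was sequenced in 9 libraries, 3 each of the ARNT2 knockout lines C4 and B3, made with CRISPR, and of wild-type cells (WT) without the knockout. All cells were kept in DMEM with FBS, and no interferon or other agent is named in the labels. The study asked about ARNT2, a transcription factor of the bHLH-PAS family, in growth and differentiation of glioblastoma cells. The labels do not say whether C4 and B3 each grew from a single cell or whether the libraries of a group came from separate cultures. Effects of the knockout and differences between lines of other origin cannot be told apart within a line, and p-values reflect the variation among these libraries alone, which may be technical.

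Type I interferons signal through the receptor chains IFNAR1 and IFNAR2 and the kinases JAK1 and TYK2, which phosphorylate STAT proteins. STAT2 and IRF9 are parts of the complex ISGF3, which binds the interferon-stimulated response element in promoters of antiviral genes. Many of these genes have a basal level without added interferon, and the products sense viral RNA, block viral entry or translation, or attach the ubiquitin-like protein ISG15 to other proteins.

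The response element was searched as 2 copies of GAAA with any 2 bases between them, on both strands, in RefSeq promoters (GRCh38.p14, 250 bases before to 50 after the start site). Promoters were matched for 40 of the 50 genes, by symbol or synonym. Of these, 25 (62.5%) held a match, against 3.57% of all 35116 promoters. The promoters shown are, of the members with a matched promoter, the 5 with the largest rise in C4 and ISG20, with the largest fall. Matches are in capitals and overlapping matches run together.
IFI6, chr1:27672143-27672442, minus strand: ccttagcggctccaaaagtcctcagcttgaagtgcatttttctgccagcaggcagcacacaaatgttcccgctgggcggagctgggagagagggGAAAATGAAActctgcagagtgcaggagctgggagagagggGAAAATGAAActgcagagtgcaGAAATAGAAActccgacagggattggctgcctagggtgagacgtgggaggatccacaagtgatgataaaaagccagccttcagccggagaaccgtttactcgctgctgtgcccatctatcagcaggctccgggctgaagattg
ISG15, chr1:1013247-1013546, plus strand: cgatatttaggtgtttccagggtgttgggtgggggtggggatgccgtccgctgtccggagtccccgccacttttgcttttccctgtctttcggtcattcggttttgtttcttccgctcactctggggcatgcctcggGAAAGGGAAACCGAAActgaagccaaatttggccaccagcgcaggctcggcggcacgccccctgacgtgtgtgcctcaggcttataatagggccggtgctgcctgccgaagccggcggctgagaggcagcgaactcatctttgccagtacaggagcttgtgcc
IFITM1, chr11:313790-314089, plus strand: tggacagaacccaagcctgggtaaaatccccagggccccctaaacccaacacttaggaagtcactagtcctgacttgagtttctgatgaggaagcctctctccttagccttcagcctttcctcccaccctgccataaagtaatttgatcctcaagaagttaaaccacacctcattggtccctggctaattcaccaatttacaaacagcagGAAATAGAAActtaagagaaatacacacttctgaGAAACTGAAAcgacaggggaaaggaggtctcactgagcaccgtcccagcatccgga
IFIT1, chr10:89392373-89392672, plus strand: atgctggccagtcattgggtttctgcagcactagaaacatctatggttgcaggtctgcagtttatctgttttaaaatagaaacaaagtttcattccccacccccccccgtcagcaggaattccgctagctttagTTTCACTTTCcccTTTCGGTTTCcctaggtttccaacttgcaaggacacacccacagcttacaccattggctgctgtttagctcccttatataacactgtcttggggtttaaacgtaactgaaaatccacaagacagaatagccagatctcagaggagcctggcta
IFITM3, chr11:320811-321110, minus strand: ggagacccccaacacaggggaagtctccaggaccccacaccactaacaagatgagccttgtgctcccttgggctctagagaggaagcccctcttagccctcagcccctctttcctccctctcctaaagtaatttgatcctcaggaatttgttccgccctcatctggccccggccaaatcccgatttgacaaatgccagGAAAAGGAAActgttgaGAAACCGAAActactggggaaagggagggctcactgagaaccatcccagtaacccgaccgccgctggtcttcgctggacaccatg
ISG20, chr15:88638766-88639065, plus strand: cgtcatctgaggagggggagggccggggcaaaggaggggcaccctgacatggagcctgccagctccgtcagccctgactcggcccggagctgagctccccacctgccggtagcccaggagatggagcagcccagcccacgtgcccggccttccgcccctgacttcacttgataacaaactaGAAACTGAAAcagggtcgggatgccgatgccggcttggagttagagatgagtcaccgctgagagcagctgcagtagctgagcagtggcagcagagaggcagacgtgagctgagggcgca
IFI6 held 3 matches, whose first bases lay at -156, -115 and -93 from the start site. ISG15, IFITM1, IFIT1 and IFITM3 each held 2, and ISG20 held 1 at -69. The search finds letters and does not show that a factor was bound.

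The authors deposited log2 values already scaled between libraries. These are not per length, so changes were tested only between libraries of the same gene. Levels of different genes, as for the markers, are set side by side only as a rough guide. Library medians lay between 10.62 and 10.65, and the read depth is unknown. ARNT2 itself was at 12.22, 12.15 and 12.05 in C4 and at 11.91, 11.90 and 11.86 in B3, against 13.56, 13.59 and 13.58 in WT. That is 37.1% of the WT level in C4 and 31.1% in B3, and p was 0.1 for either line by exact permutation (two-sided), the lowest value possible with 3 against 3 libraries. Of the glioma and astrocyte markers, VIM, NES, CD44, S100B and SOX2 had mean values of 12.22 or more in each group, while GFAP was at 6.86 in C4, 6.88 in B3 and 6.63 in WT and AQP4 at 3.97, 3.93 and 3.95. Of the 6 listed T and B cell markers 3 were analysed here and none passed the filter. The log2 of their summed antilogs was 3.39 to 3.42 in C4, 3.40 to 3.42 in B3 and 3.40 to 3.42 in WT. The same sum over 5 of 7 listed myeloid and dendritic cell markers, led by CD68, was 10.89 to 10.91 in C4, 11.11 to 11.17 in B3 and 10.93 to 10.99 in WT, and its part in the results was not tested.

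Most interferon response genes were higher in C4 than in WT, by moderate amounts. Of the 50 genes, 43 rose and 5 fell at limma's Benjamini-Hochberg adjusted p of 0.05, where 28.2% of all genes tested rose and 28.0% fell. A rise of at least 0.25 on the log2 scale was called for 31 (62%), against 6.57% of all genes, and a fall of that size for 1 (2%), against 8.60%. In 13 genes the rise was at least 0.5, a size that 1.04% of all genes reached, and in 0 the fall was, against 2.34%. The median change of the 50 was 0.33, beside 0.001 for all genes tested. In 42 genes all C4 libraries lay above all WT libraries, which was true of 30.5% of all genes, and in 5 they lay below, against 30.2%. No member reached a change of 1. In a culture, a change in the share of cells that express a gene and a change in the RNA per cell cannot be told apart.

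The same genes had no common direction in B3. Of the 50, 16 rose and 13 fell, against 23.2% and 24.6% of all genes tested, and 21 were not called. The median change was 0.02, beside 0.0001 for all genes. Rises of at least 0.25 numbered 4 (8%), against 2.82% of all genes, and falls of that size also 4 (8%), against 6.49%. A rise of at least 0.5 was called for 1 gene, against 0.219%, and a fall of that size for 2, against 1.5%. All B3 libraries lay above all WT libraries in 19 genes, against 26.4% of all genes, and below them in 14, against 27.4%. Scaling all libraries to an equal total gave 21 members that rose and 12 that fell in B3, where that scaling made 33.3% of all genes rise and 18.6% fall and moved the median of all genes to 0.03. C4 and B3 were compared with the same WT libraries, so their changes against WT are not independent.

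Set directly against each other, C4 was above B3 for 43 of the 50 genes and below it for 2, where 28.6% of all genes tested were higher and 27.8% lower. The median difference was 0.25, beside 0.0006 for all genes. A difference of at least 0.25 was called for 24 higher (48%) and 1 lower, against 8.63% and 7.66% of all genes, and one of at least 0.5 for 10 higher, against 2.02%, and 0 lower, against 1.54%. All C4 libraries lay above all B3 libraries in 42 genes, against 31.4% of all genes, and below them in 2, against 30.9%. IFITM1 differed by more than 1. OAS2, TRIM25, USP18, PARP12 and SP100 were not called between the lines, with differences of -0.02, 0.01, 0.10, 0.02 and 0.00 (SE 0.02 to 0.05). USP18 was called without B3 replicate 2 (adjusted p = 0.0105). The call of OASL ended when B3 replicate 2 (0.211) or 3 (0.0543), or C4 replicate 1 (0.0659) or 2 (0.210), was left out, and that of EIF2AK2 without C4 replicate 2 (0.0622).

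**Figure D1:**
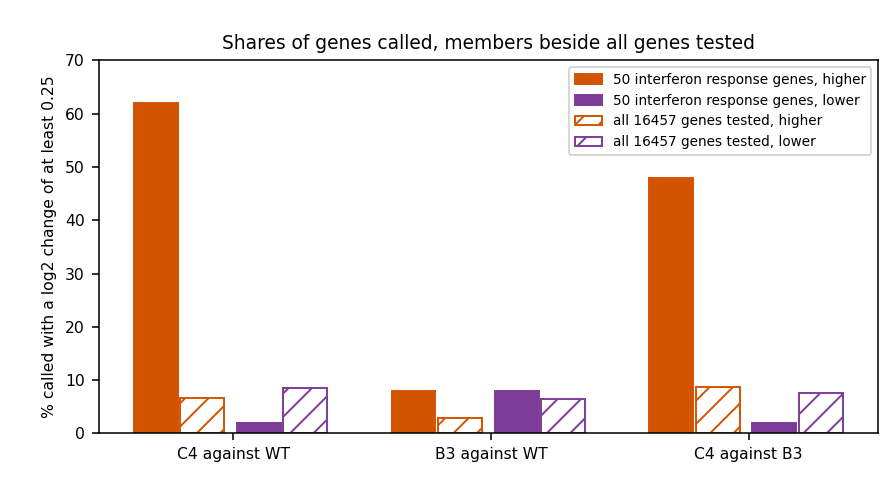
Share of genes called with a log2 change of at least 0.25 (vertical axis, %) in each comparison, for the 50 interferon response genes (filled bars) beside all 16457 genes tested (hatched), higher in orange and lower in purple. The share of members higher is 62% in C4 against WT, 8% in B3 against WT and 48% in C4 against B3.

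Among the transcription factors of the response, all 4 rose in C4, and in B3 IRF9 and IRF7 rose while STAT2 and IRF1 fell. Beside this and the family counts that follow, 28.2% of all genes tested rose and 28.0% fell in C4. In B3 these shares were 23.2% and 24.6%. Each family has few genes, and none was tested as a set. IRF9, the DNA-binding part of ISGF3, was at 11.70, 11.82 and 11.85 in C4 and at 11.49, 11.47 and 11.48 in B3, against 11.18, 11.17 and 11.14 in WT. No group overlapped another, and the change was 0.63 ± 0.03 (log2 ± SE, n = 3 libraries per group, adjusted p = 2.61e-13) in C4 and 0.32 ± 0.03 (adjusted p = 6.33e-08) in B3. Of the IRF9 exon bases, 48.4% are also exons of AL136295.5 on the same strand, and how reads there were assigned is not given in the sources used here. STAT2, the subunit that brings the activation domain to ISGF3, was at 13.67, 13.77 and 13.74 in C4 and at 13.19, 13.19 and 13.17 in B3, against 13.33, 13.26 and 13.31 in WT. The C4 libraries lay above and the B3 libraries below all WT libraries, with changes of 0.43 ± 0.03 and -0.12 ± 0.03. IRF1, a factor also induced by interferon gamma and by NF-kB, changed by 0.11 ± 0.03 in C4 and -0.19 ± 0.03 in B3. C5orf56, on the opposite strand, overlaps 22% of the IRF1 exon bases. IRF7, which raises interferon production itself, changed by 0.29 ± 0.04 in C4 and 0.13 ± 0.04 in B3, and the B3 call ended without B3 replicate 3 (adjusted p = 0.0546, from 0.00278 to 0.0546 over all alternatives).

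The cytosolic RNA sensors rose in C4, 3 of 3, by near-equal amounts. DDX58, which encodes RIG-I, changed by 0.34 ± 0.03, IFIH1, which encodes MDA5, by 0.32 ± 0.03, and DHX58, which encodes their regulator LGP2, by 0.30 ± 0.04. In B3 DDX58 rose by 0.15 ± 0.03. IFIH1 and DHX58 were at -0.04 ± 0.03 and 0.09 ± 0.04 there and were not called. DHX58 was called there without WT replicate 2 (adjusted p = 0.0388, from 0.0125 to 0.208 over all alternatives).

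The IFIT genes encode RNA-binding proteins that restrain translation of foreign RNA and lie side by side on chromosome 10. Of the 4, 3 rose and 1 fell in C4, and in B3 1 rose and 1 fell. IFIT1 was at 10.50, 10.60 and 10.62 in C4 and at 10.26, 10.21 and 10.25 in B3, against 9.94, 9.81 and 9.91 in WT. IFIT3 was at 12.44, 12.44 and 12.51 in C4 and at 11.87, 11.84 and 11.84 in B3, against 11.86, 11.87 and 11.82 in WT. For IFIT1 the 3 groups were apart in the order C4, B3, WT, and for IFIT3 the B3 and WT libraries overlapped. The changes in C4 were 0.69 ± 0.04 (adjusted p = 3.6e-12) for IFIT1 and 0.61 ± 0.03 (adjusted p = 9.72e-15) for IFIT3, and those in B3 were 0.35 ± 0.04 (adjusted p = 4.56e-07) and 0.00 ± 0.03 (adjusted p = 0.968).

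IFIT2 had another order. It was at 11.76, 11.64 and 11.70 in C4 and at 11.24, 11.17 and 11.16 in B3, against 11.81, 11.78 and 11.79 in WT. The B3 libraries were the lowest, with a change of -0.60 ± 0.03 (adjusted p = 9.67e-13). In C4 the change was -0.10 ± 0.03 (adjusted p = 0.0191), a call that ended without C4 replicate 2 (0.152) and with totals made equal (0.0919), in a range of 0.00444 to 0.152 over all alternatives. Of the IFIT2 exon bases, 10.3% lie in exons of other genes. IFIT5 was at 12.25, 12.29 and 12.25 in C4 and at 12.16, 12.08 and 12.18 in B3, against 12.14, 12.13 and 12.16 in WT. It rose in C4 by 0.12 ± 0.03 and the B3 libraries overlapped those of WT. The 20 nearest tested genes that are neither members nor listed interferon-induced genes had median changes of -0.01 in C4 and 0.001 in B3 around this cluster.

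The OAS genes, whose enzymes make short oligoadenylates that activate RNase L when they meet double-stranded RNA, rose in C4, 4 of 4, and 3 of 4 in B3. OAS1 was at 10.66, 10.81 and 10.86 in C4 and at 10.59, 10.57 and 10.59 in B3, against 10.40, 10.42 and 10.41 in WT. OAS3 was at 13.60, 13.72 and 13.71 in C4 and at 13.40, 13.34 and 13.34 in B3, against 13.16, 13.13 and 13.10 in WT. Both were apart in all groups, in the order C4, B3, WT. Their changes in C4 were 0.37 ± 0.04 for OAS1 and 0.55 ± 0.03 for OAS3, and in B3 0.18 ± 0.04 and 0.23 ± 0.03. OAS2 was at 7.90, 8.04 and 7.94 in C4 and at 8.11, 7.88 and 7.94 in B3, against 7.57, 7.63 and 7.55 in WT. Here the knockout lines overlapped each other and both lay above WT, by 0.37 ± 0.05 in C4 (adjusted p = 2.96e-06) and 0.39 ± 0.05 in B3 (adjusted p = 2.27e-06). OASL, a relative without oligoadenylate synthesis, was at 8.08, 8.17 and 8.01 in C4 and at 8.02, 7.87 and 7.98 in B3, against 7.90, 7.79 and 7.85 in WT. It rose in C4 by 0.24 ± 0.05 and was not called in B3 (0.11 ± 0.05), except without WT replicate 1 (adjusted p = 0.0481), without B3 replicate 2 (0.0306) or with equal totals (0.0271). EIF2AK2, the gene of the RNA-activated kinase PKR, rose by 0.23 ± 0.03 in C4 and 0.14 ± 0.03 in B3.

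Of the dynamin-like MX genes, neighbours on chromosome 21, MX2 rose in C4 and MX1 was not called there, and both fell in B3. MX2, whose product restrains HIV at the nuclear pore, was at 10.01, 10.05 and 10.04 in C4 and at 9.15, 9.07 and 9.07 in B3, against 9.24, 9.24 and 9.28 in WT. MX1, whose product restrains influenza viruses, was at 9.91, 9.91 and 9.83 in C4 and at 9.78, 9.71 and 9.63 in B3, against 9.81, 9.90 and 9.85 in WT. MX2 rose in C4 by 0.78 ± 0.04 (adjusted p = 2.83e-13) and fell in B3 by 0.16 on the log2 scale (SE 0.04), with no overlap between groups. MX1 was at 0.03 ± 0.05 in C4 (adjusted p = 0.6, groups overlapping) and at -0.15 ± 0.05 in B3 (adjusted p = 0.0103), and this B3 call ended without WT replicate 2 (0.0517) or B3 replicate 3 (0.0724), in a range of 0.00458 to 0.0724 over all alternatives. GBP1, a guanylate-binding GTPase that responds strongly to interferon gamma, rose in C4 by 0.28 ± 0.03 and was at 0.06 ± 0.03 in B3, called there without WT replicate 2 (adjusted p = 0.0260).

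**Figure D2:**
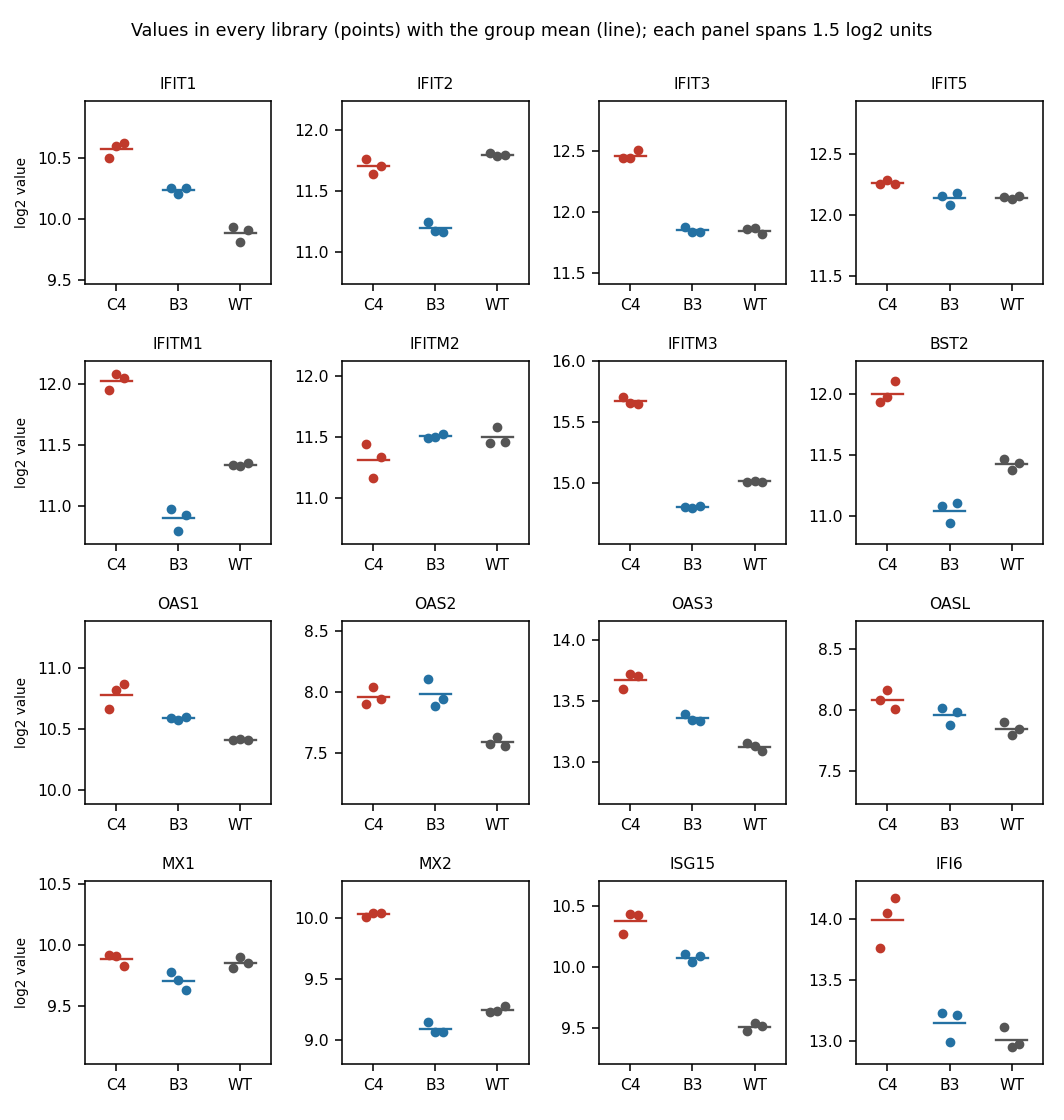
Deposited log2 values (vertical axes, each spanning 1.5 units) of 16 interferon response genes in every library of C4, B3 and WT, with the group mean as a line. IFIT1, OAS1, OAS3 and ISG15 stand in the order C4, B3, WT, while IFITM1, IFITM3, BST2 and MX2 have B3 below WT and C4 above it.

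Of the 5 genes of membrane-bound effectors, 4 rose and 1 fell in C4, and 3 fell in B3. IFITM1, whose product hinders viral fusion at the cell surface, was at 11.95, 12.08 and 12.05 in C4 and at 10.98, 10.80 and 10.93 in B3, against 11.34, 11.33 and 11.35 in WT. IFITM3, which acts in endosomes, was at 15.71, 15.66 and 15.65 in C4 and at 14.80, 14.79 and 14.81 in B3, against 15.01, 15.02 and 15.01 in WT. BST2, which encodes tetherin, a protein that holds budding virus at the membrane, was at 11.94, 11.98 and 12.10 in C4 and at 11.08, 10.94 and 11.11 in B3, against 11.47, 11.38 and 11.44 in WT. In all 3 genes every C4 library was above, and every B3 library below, every WT library. The changes in C4 were 0.69 ± 0.04 for IFITM1, 0.66 ± 0.02 for IFITM3 and 0.58 ± 0.04 for BST2, and those in B3 were -0.44 ± 0.04, -0.21 ± 0.02 and -0.38 ± 0.04. C4 exceeded B3 by 1.13 ± 0.04 for IFITM1, a 2.18-fold level (adjusted p = 1.12e-16).

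IFITM2 did not follow its neighbours. It was at 11.44, 11.17 and 11.34 in C4 and at 11.49, 11.50 and 11.52 in B3, against 11.45, 11.58 and 11.46 in WT. The C4 libraries were the lowest, with a change of -0.18 ± 0.05 (adjusted p = 0.00219), and B3 was at 0.01 ± 0.05. The values of this family are uncertain, since IFITM1, IFITM2 and IFITM3 share 32.0%, 34.1% and 17.4% of their transcripts' 50-base words with other genes, mostly with each other, and the annotated IFITM2 gene (chromosome 11, 307631 to 315272, GENCODE 29 on GRCh38) spans IFITM1. Of the IFITM3 exon bases, 21.3% overlap AC136475.5 on the opposite strand. The 15 neighbouring genes had median changes of 0.04 in C4 and -0.03 in B3. RSAD2, the gene of viperin, an enzyme that makes a chain-terminating nucleotide, rose in C4 by 0.51 ± 0.06 and was at 0.10 ± 0.06 in B3, called there without WT replicate 1 (adjusted p = 0.0370) or B3 replicate 2 (0.0139). CMPK2, a nucleotide kinase gene next to it on chromosome 2 and read in the opposite direction, rose in C4 by 0.57 ± 0.05 and was at 0.06 ± 0.05 in B3.

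ISG15 conjugation genes rose in C4, 6 of 6, and 3 of 6 in B3. ISG15 itself was at 10.27, 10.44 and 10.42 in C4 and at 10.10, 10.04 and 10.09 in B3, against 9.47, 9.54 and 9.52 in WT. The 3 groups were apart, with changes of 0.87 ± 0.05 in C4, a 1.83-fold level (adjusted p = 1.3e-13), and 0.57 ± 0.05 in B3, a 1.48-fold level (adjusted p = 5.43e-10). ISG15 had the largest rise of the 50 genes in B3 and the second largest in C4. The other genes of the pathway changed less. UBE2L6, the conjugating enzyme, rose in C4 by 0.15 ± 0.03 and was at -0.05 ± 0.03 in B3, called there without WT replicate 1 (adjusted p = 0.0247). HERC5, the main ligase, rose by 0.30 ± 0.03 in C4 and 0.18 ± 0.03 in B3, and its neighbour HERC6 was at 0.25 ± 0.03 in C4, a rise, and at -0.00 ± 0.03 in B3. USP18, which removes ISG15 and restrains the interferon receptor, rose in C4 by 0.21 ± 0.05 and was at 0.11 ± 0.05 in B3, called there without WT replicate 2 (adjusted p = 0.0367), B3 replicate 1 (0.0432) or B3 replicate 3 (0.0426). It shares 23.4% of its words with other genes, almost all with USP41, so its values are uncertain. TRIM25, a ubiquitin ligase of the RIG-I route, rose by 0.07 ± 0.02 in C4 and 0.06 ± 0.02 in B3, small changes whose call ended in C4 without C4 replicate 2 (adjusted p = 0.0718) and in B3 without WT replicate 2 (0.0781), B3 replicate 1 (0.105) or B3 replicate 2 (0.134).

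PARP9 and DTX3L, whose products form a complex and whose genes start head to head on chromosome 3 (122527924 to 122564577 on the minus strand and 122564238 to 122575203 on the plus strand, GRCh38), rose together in C4. PARP9 changed by 0.50 ± 0.03 and DTX3L by 0.47 ± 0.03, and in B3 they were at 0.02 ± 0.03 and 0.01 ± 0.03. Their exons overlap over 2.43% of PARP9 and 3.70% of DTX3L. PARP14, a mono-ADP-ribosyltransferase gene nearby, rose in C4 by 0.12 ± 0.03, although a C4 library lay within the range of WT, and was at -0.07 ± 0.03 in B3, called there without WT replicate 2 (adjusted p = 0.0216) or C4 replicate 1 (0.0485). PARP12, of another chromosome, fell in both lines. It was at 11.40, 11.49 and 11.40 in C4 and at 11.43, 11.35 and 11.45 in B3, against 11.58, 11.58 and 11.59 in WT. The knockout libraries overlapped each other and all 6 lay below WT, by 0.15 ± 0.03 in C4 and 0.17 ± 0.03 in B3 on the log2 scale.

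TRIM and nuclear body genes rose in C4, 4 of 4. TRIM22, an antiviral ubiquitin ligase, changed by 0.56 ± 0.03 in C4 and -0.10 ± 0.03 in B3, and TRIM21, a cytosolic antibody receptor, by 0.40 ± 0.04 in C4, with 0.01 ± 0.04 in B3, not called. In TRIM22, 10.7% of exon bases are also exons of OR56B1 on the same strand, and 12.1% of its 50-base words are shared with other genes. Of the nuclear body genes, PML rose by 0.24 ± 0.02 in C4 and 0.09 ± 0.02 in B3, and SP100 by 0.17 ± 0.02 in each. The 20 genes around SP100 had a median change of -0.14 in C4 and -0.001 in B3. Across the 50 members these neighbour medians ran from -0.14 to 0.09 in C4 and from -0.08 to 0.06 in B3.

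The small IFI genes rose in C4, 5 of 5. IFI6, whose product sits in the endoplasmic reticulum and hinders flavivirus replication, had the largest rise of all 50. It was at 13.76, 14.05 and 14.17 in C4 and at 13.23, 12.99 and 13.22 in B3, against 13.11, 12.95 and 12.97 in WT. The C4 libraries spread over a wider range than those of the other groups and all lay above them, and B3 overlapped WT. The change was 0.98 ± 0.07 in C4, a 1.97-fold level (adjusted p = 1.81e-11), and 0.13 ± 0.07 in B3 (adjusted p = 0.112). The B3 change was called without WT replicate 1 (0.0304), B3 replicate 2 (0.0228) or C4 replicate 1 (0.0254), in a range of 0.0228 to 0.429 over all alternatives. IFI35 and IFI44L changed by 0.36 ± 0.03 and 0.35 ± 0.05 in C4 and were at -0.08 ± 0.03 and -0.05 ± 0.05 in B3, not called, but IFI35 was called there without WT replicate 1 (adjusted p = 0.0202) or B3 replicate 1 (0.0323). IFI44 rose by 0.34 ± 0.04 in C4 and 0.13 ± 0.04 in B3. IFI27 rose in C4 by 0.18 ± 0.03. With values of 5.33 to 5.60 it is among the weakly expressed genes, whose changes may be understated on the deposited scale.

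Of the other effectors, 4 rose in C4, 2 fell and EPSTI1 was not called. ISG20, an exonuclease gene, fell in both lines. It was at 9.82, 9.84 and 9.86 in C4 and at 10.11, 10.15 and 10.09 in B3, against 10.29, 10.34 and 10.31 in WT. The groups were apart, C4 lowest, then B3, then WT. ISG20 was the only member called lower at both steps, B3 against WT and C4 against B3, while 13 were called higher at both. How many of all genes tested were called at both steps was not counted, so these numbers have no background beside them. The changes of ISG20 were -0.48 ± 0.04 in C4 (adjusted p = 3.45e-10) and -0.20 ± 0.04 in B3 (adjusted p = 0.000202). XAF1, which encodes an antagonist of the apoptosis inhibitor XIAP, was at 7.88, 7.87 and 7.82 in C4 and at 7.42, 7.41 and 7.35 in B3, against 8.04, 8.06 and 7.90 in WT. It was lowest in B3, at -0.61 ± 0.05 (adjusted p = 3.58e-10), and fell less in C4, at -0.15 ± 0.05 (adjusted p = 0.0126), a call that ended without WT replicate 2 (0.0681) or C4 replicate 3 (0.0565), in a range of 0.00247 to 0.0681 over all alternatives. Of the XAF1 exon bases, 38.3% overlap the antisense gene PRAL, and it is not stated whether counting used strand.

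SAMD9 and SAMD9L, neighbouring growth-restraining antiviral genes on chromosome 7, rose in both lines. SAMD9 changed by 0.42 ± 0.03 in C4 and 0.17 ± 0.03 in B3, and SAMD9L by 0.31 ± 0.03 and 0.10 ± 0.03, whose B3 call ended without B3 replicate 1 (adjusted p = 0.0796). RTP4, a chaperone gene for receptors, rose in C4 by 0.38 ± 0.05 and was at -0.11 ± 0.05 in B3, called there without WT replicate 3 (adjusted p = 0.0252). EPSTI1 was at 0.06 ± 0.04 in C4 and fell in B3 by 0.12 on the log2 scale (SE 0.04, adjusted p = 0.0238), a call that ended without WT replicate 2 (0.105), WT replicate 3 (0.111), B3 replicate 2 (0.0514) or B3 replicate 3 (0.0634).

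**Figure D3:**
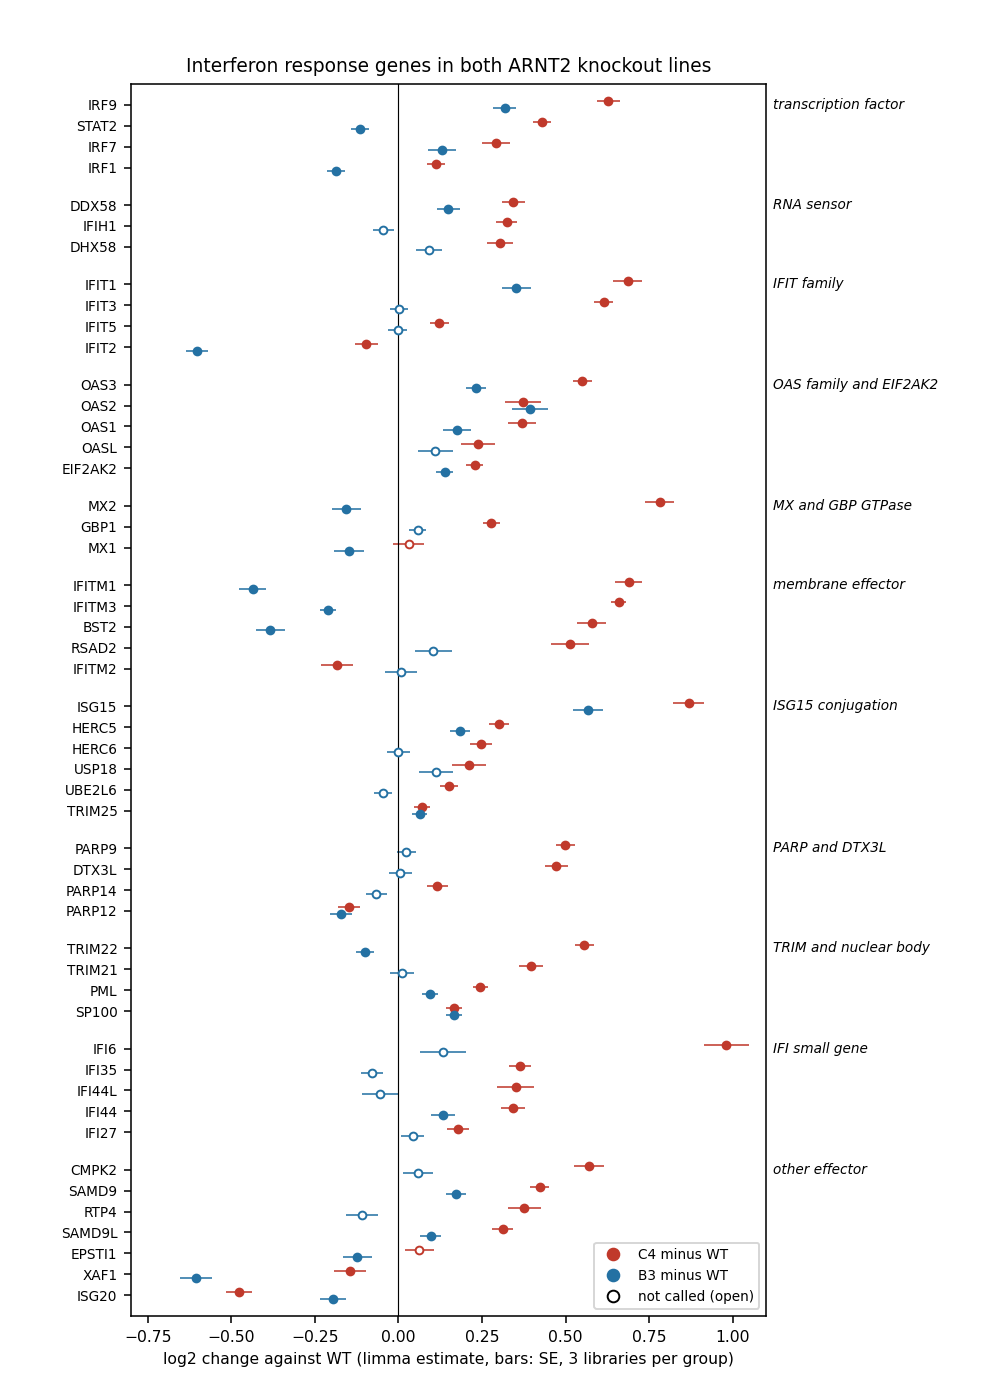
log2 change against WT (horizontal axis, limma estimate with SE bars, 3 libraries per group) of the 50 interferon response genes, grouped by role, for C4 (red) and B3 (blue), open where not called. In C4 43 genes lie to the right of 0 as called rises, and in B3 the called genes lie on both sides.

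In 7 members the lines were called in opposite directions, C4 above and B3 below WT in each: STAT2, IRF1, MX2, IFITM1, IFITM3, BST2 and TRIM22. How many of all genes tested were called in opposite directions was not counted, so this number has no background beside it. Within C4, replicate 1 was the lowest library for 31 of the 50 genes and replicate 2 for 7. The median deviation of the members from their C4 mean was -0.02 in replicate 1 and 0.02 in replicate 2, against a median rise of 0.33. Without C4 replicate 1 the median rise was 0.34 and without C4 replicate 2 it was 0.31.

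Members with and without a response element match had similar medians. A promoter without a match need not lack the element, since copies of GAAA at another spacing were not counted. GAAACGAAA, with 1 base between the copies, stands in the unmatched promoters of OAS1, DDX58, RSAD2 and XAF1, and on the other strand in that of TRIM25. GAAATGAAA, also with 1 base between, stands in that of IFI35. Where a gene had several promoter entries, only the first was searched. In C4, 21 of the 25 members with a match rose and 2 fell, with a median of 0.35, and 14 of the 15 without a match rose and 1 fell, with a median of 0.34. In B3, 7 rose and 7 fell of those with a match (median 0.002), and 6 rose and 3 fell of those without (median 0.06). Of all genes tested, 28.2% rose and 28.0% fell in C4, and 23.2% rose and 24.6% fell in B3. Of the members that fell in both lines, ISG20 and PARP12 hold a match in their promoters, XAF1 holds none and IFIT2 had no promoter matched. The promoters of IFI6 and ISG15 also hold a match. Among the other genes tested, those outside the 50 members, only genes with a promoter found by symbol were searched, and 329 had a match. Of the 329, 27.7% rose and 26.7% fell in C4, and of the 11303 searched without a match 30.2% rose and 28.4% fell. In B3 25.2% rose and 24.9% fell with a match, and 24.9% rose and 25% fell without. The STAT dimer motif TTCNNNGAA was found in 9 of the 40 member promoters (22.5%), against 7.66% of all. ACGTG, the core of sites bound by hypoxia-inducible factors with ARNT proteins, was found in 9 of 40 (22.5%), against 21.4% of all, also searched on both strands.

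**Figure D4:**
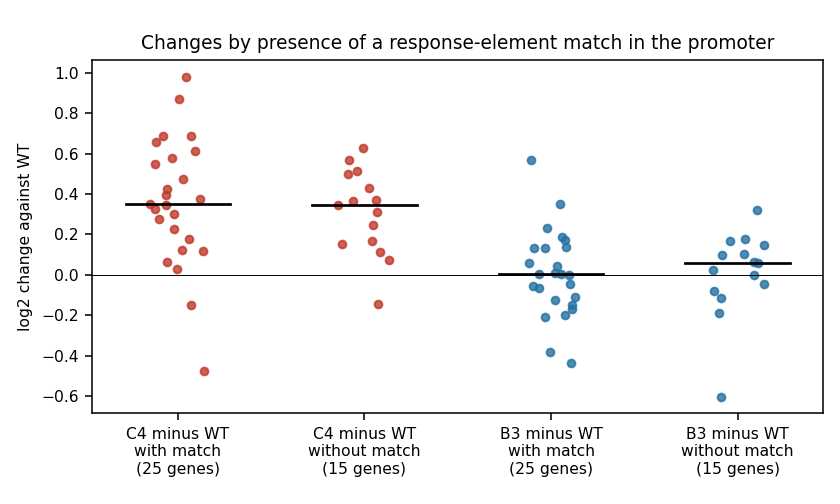
log2 change against WT (vertical axis) of each member with (25 genes) or without (15 genes) a response element match in its promoter, for C4 (red) and B3 (blue), with the median as a line and points spread sideways at random. The medians in C4 are 0.35 with a match and 0.34 without.

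Genes that make, receive or restrain interferon signals were called in both directions. Of 54 listed, 43 were in the table and 40 were tested, of which 16 rose (40%) and 12 fell (30%) in C4, against 28.2% and 28.0% of all genes. In B3 7 rose (17.5%) and 13 fell (32.5%), against 23.2% and 24.6% of all genes. The medians were 0.02 in C4 and -0.01 in B3. Of the ligands, IFNB1 and IFNA1 stood near the bottom of the scale, IFNA1 with group means of 3.48 in C4, 3.44 in B3 and 3.47 in WT. IFNE stood higher, at 6.02 in C4, 5.97 in B3 and 6.03 in WT. IFNB1 had values of 1.58 to 1.63 over all 9 libraries and did not pass the filter, IFNA1 was at 0.01 ± 0.02 in C4 and -0.03 ± 0.02 in B3, and IFNE was at -0.01 ± 0.05 and -0.06 ± 0.05, none called. The other listed ligands were not analysed here.

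Of the receptor genes, IFNAR1 was not called, at 0.03 ± 0.02 in C4 and 0.01 ± 0.02 in B3. IFNAR2, the signalling chain partner, fell by 0.16 ± 0.03 in C4 and 0.15 ± 0.03 in B3. The interferon gamma receptor genes fell in C4, IFNGR2 with -0.52 ± 0.02 (adjusted p = 8.18e-16) and IFNGR1 with -0.28 ± 0.03. In B3, IFNGR2 was at 0.00 ± 0.02, IFNGR1 fell with -0.12 ± 0.03, although a B3 library lay within the range of WT, and IFNLR1, a chain of the lambda interferon receptor, with -0.26 ± 0.04. IFNLR1 also fell in C4, with -0.12 ± 0.04. JAK1 rose in C4 by 0.17 ± 0.02 and was at -0.01 ± 0.02 in B3, and TYK2 was at 0.03 ± 0.02 and 0.04 ± 0.02, not called.

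Upstream of interferon production, TMEM173, which encodes the DNA-sensing adaptor STING, was at 12.43, 12.35 and 12.43 in C4 and at 11.80, 11.83 and 11.76 in B3, against 12.07, 11.99 and 12.02 in WT. It rose in C4 by 0.38 ± 0.03 and changed in B3 by -0.23 ± 0.03. MAVS, the adaptor of the RNA sensors, changed by 0.32 ± 0.03 in C4, TRAF6 by 0.32 ± 0.04, IFI16, a DNA sensor, by 0.30 ± 0.03 and MYD88, a Toll-like receptor adaptor, by 0.26 ± 0.03. In B3 MYD88 rose by 0.10 ± 0.03 and MAVS, TRAF6 and IFI16 were not called. IRF3 rose in C4 by 0.07 ± 0.03, with libraries overlapping those of WT, and IRF5 fell in both lines, with -0.15 ± 0.04 in C4 and -0.40 ± 0.04 in B3. Among restraining genes, SAMHD1, a nucleotide hydrolase, rose by 0.57 ± 0.02 in C4 and 0.14 ± 0.02 in B3. SOCS3 rose in C4 by 0.28 ± 0.03 and changed in B3 by -0.17 ± 0.03. Of the RNase H2 genes, RNASEH2B fell in C4 with -0.27 ± 0.03 and was at -0.01 ± 0.03 in B3, and RNASEH2A was at -0.02 ± 0.03 in C4 and rose in B3 by 0.32 ± 0.03.

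A further 54 interferon-induced genes outside the 50, 6 of them also in the preceding list, were described in the same way. Of the 49 tested, 30 rose (61.2%) and 9 fell (18.4%) in C4, with a median of 0.10, against 28.2% and 28.0% of all genes. In B3 11 rose (22.4%) and 19 fell (38.8%), with a median of -0.03, against 23.2% and 24.6% of all genes. In C4 the largest rises were those of APOL1, an apolipoprotein gene, at 0.67 ± 0.03, GBP4 at 0.63 ± 0.03 and GBP2 at 0.42 ± 0.03. The largest falls were those of NCOA7 at -0.67 ± 0.02, CASP1, the inflammasome protease, at -0.53 ± 0.05 and RIPK2 at -0.51 ± 0.03. In B3 the largest rises were those of LGALS9 at 0.32 ± 0.04, TNFSF10 at 0.25 ± 0.05 and PLSCR1 at 0.19 ± 0.03, and the largest falls those of CASP1 at -0.56 ± 0.05, APOL1 at -0.34 ± 0.03 and LGALS3BP at -0.27 ± 0.03. CASP1 thus fell in both lines by similar amounts. APOL1, GBP2 and GBP4 had the order of IFITM3, with C4 above and B3 below WT, and so had others of the list, among them RNF213. In B3 GBP2 was at -0.17 ± 0.03 and GBP4 at -0.12 ± 0.03.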

How the data were processed

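The submitters' processing notes name genome build hg38 and the tools DESeq2, Subread 1.6.3 and STAR 2.7.3a. Their roles and the counting options are not given in the sources used here. The deposited values are log2 values that the authors scaled between libraries. The transform is not named. The median SD between replicates was 0.0452 at values of 8 to 12 and 0.00935 at values under 2, a shape like that of a regularized log, so changes of weakly expressed genes may be understated, which was not tested. Reads cannot be recovered, depth is unknown, and no count test was used.

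The filter kept genes whose antilogs averaged 10 or more over 9 libraries, and limma (3.58.1, R 4.3.3) was fitted to them with a coefficient per group and an intensity trend, two-sided, with Benjamini-Hochberg adjustment over all 16457 genes. Alternatives changed the filter, pseudocount, scaling, trend, variance estimate, groups fitted and threshold, or left out a library. The code was tested on simulated data. The members, lists and tests were chosen with earlier results of these data known. A single gene of the pathway list enters the counts but is not reported here. Values in every library are given for the largest changes and for the IFIT, OAS, MX and IFITM families. Sequences are from RefSeq (GRCh38.p14), taking the first entry of a gene with several, and positions from GENCODE 29. Neighbours are the 10 tested genes on each side. No label gives a batch, and replicate numbers did not pair the libraries.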

Additional observations from a re-analysis of the deposited data

Results flagged for a closer look

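Genes whose change against WT was called with opposite signs in the knockout lines, each at least 0.2 on the log2 scale, and for which the fitted difference of C4 and B3 was called, were 3 members and 2 listed genes outside them. C4 exceeded B3 by 1.13 for IFITM1, 0.87 for IFITM3, 0.96 for BST2, 0.61 for TMEM173 and 1.00 for APOL1. The values of IFITM1 and IFITM3 are uncertain, since these genes overlap or share sequence with other genes. The share of all genes tested that meet this rule was not counted. What lies behind these differences was not tested.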

How the results depend on the processing

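In C4 against WT the number of members called higher was 42 to 43 when each library was left out in turn, and 43 with all library totals made equal. The number called lower was 4 to 5 when a library was left out. At an adjusted p under 0.01 it was 3, by the stricter threshold itself. The median change over the members was 0.31 to 0.34 when a library was left out and 0.36 with equal totals, against 0.33. In B3 against WT, leaving out a library gave 15 to 19 higher and 11 to 15 lower, and a median of 0.01 to 0.03. The median was 0.0495 (0.05) with equal totals, against 0.02. That scaling moved the median of all genes to 0.03 in B3 and 0.03 in C4, a shift applied alike to every gene of a library. It put 64.2% of all called genes on the higher side in B3, against 48.5% as deposited, and 61.5% against 50.2% in C4.

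The replicate block left 16 higher and 13 lower members in B3 and 43 and 5 in C4, the counts of the fit without it, and 43 and 2 in C4 against B3. The pathway genes called were 19 in B3, 26 in C4 and 22 in C4 against B3 with the block, and 16 to 20, 25 to 28 and 22 to 24 without single libraries. Leaving out a library gave 41 to 43 members higher and 2 lower in C4 against B3, with a median of 0.24 to 0.25. Same-numbered libraries of different groups had correlations of deviations of -0.23 to 0.02, so the numbers were not taken as pairs. The 9 members that share at least 10% of their exon bases or 50-base words with other genes were also left out. That choice was made after seeing the data. Of the 41 kept, 15 were higher and 7 lower in B3, against 16 and 13 with all members. Of all genes tested, 23.2% were higher and 24.6% lower there. The members left out held IRF1, IFIT2, IFITM1, IFITM3, TRIM22 and XAF1, which fell in B3, and IRF9, which rose. IFITM2 and USP18, not called in B3, were left out too. In C4 37 were higher and 2 lower, and in C4 against B3 36 and 1, with fewer genes counted.

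Of single members, 15 changed their call under some alternative in B3, 3 in C4 and 3 in C4 against B3, and no called change turned its direction. DHX58 was called in B3 with equal totals (adjusted p = 0.0125), at the same median (0.0359), without an intensity trend (0.0237) and without WT replicate 2 (0.0388). Each group had 3 libraries, and the read depth behind the values is unknown.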
